A study of Homo sapiens with 6 samples.

Results

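Small nucleolar RNAs and small Cajal body RNAs were taken as every gene whose symbol in the probe annotation starts with SNORD, SNORA or SCARNA. The Illumina HumanHT-12 V4 bead array held 304 such probes for 301 genes of 20046 named genes in all. Of these, 118 genes, with 119 probes, had a detection p below 0.01 on at least 1 of 6 arrays, against 12187 genes of the whole array. They were 56 of 176 SNORD genes, 49 of 101 SNORA genes and 13 of 24 SCARNA genes. The 183 other genes were not detected on any array, and 47 genes were detected on all 6.

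The arrays came from 3 human cancer cell lines: HCT116, a colon line, and the lines labelled COLO205 (colon) and OVCAR5 (ovary). Cells received imetelstat, an oligonucleotide that blocks the RNA template of telomerase, or vehicle for 2 weeks, with 1 array per line and treatment. The labels name vehicle as the control, whereas the cell culture methods of the study name a mismatch oligonucleotide. The legend of the study's array figure calls the control cells untreated. The number of replicates in the methods is higher than the 1 array per group analysed here. A line here is 1 culture per treatment, so that no ratio within a line has a replicate check.

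Small nucleolar RNAs guide chemical marks onto ribosomal RNA. Box C/D RNAs (SNORD) guide ribose methylation and box H/ACA RNAs (SNORA) guide pseudouridylation, each in a complex with its own core proteins. Small Cajal body RNAs (SCARNA) guide the same marks on spliceosomal RNAs in Cajal bodies, and the RNA of telomerase is itself an H/ACA RNA that passes through these bodies. Most of them are cut out of the introns of other genes. U3 (SNORD3) is an exception in both respects, since it has its own promoter and acts in the cleavage of the ribosomal RNA precursor. Mature forms lack the poly(A) tail from which the labelling kit primes, so the mature RNA, its precursors and host introns cannot be told apart in these signals.

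All signals are given as log2 of the bead average after quantile normalization over the arrays. The median signal of the detected small RNAs lay between 7.09 and 7.32 on the 6 arrays, near the lowest signals that counted as detected, which were 6.97 to 7.06. Mean raw signal of the imetelstat array was 99.8% of that of the vehicle array in HCT116, 78.5% in the line labelled COLO205 and 98.3% in OVCAR5. The arrays labelled COLO205 lay much closer to HCT116 than to OVCAR5. In the closest pairing, HCT116 with imetelstat and COLO205 with vehicle had a Pearson r of 0.987 across genes, which are not independent replicates. The HCT116 pair had the same value, and 75 genes differed at least 2-fold in the first case, against 91 in the second. With imetelstat on both, HCT116 and COLO205 had r of 0.978 and 182 such genes, and with vehicle on both 0.983 and 184. HCT116 with vehicle and COLO205 with imetelstat had 0.976 and 230, and the COLO205 pair itself 31. Between COLO205 and OVCAR5 1969 genes differed with imetelstat on both and 1769 with vehicle on both. Of 10 measured colon epithelium markers 4 were detected on both COLO205 arrays and 6 on neither, and CEACAM5, CEACAM6, KRT20 and CDH17 were detected only on the OVCAR5 arrays, where 8 of the 10 were detected on both arrays. Results of this pair are therefore given as those of the arrays labelled COLO205, and line comparisons are given without each colon pair in turn. Of 5 measured ovary markers 3 were detected on both OVCAR5 arrays, 2 on both HCT116 arrays and 1 on both arrays labelled COLO205.

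The starts of the genes that hold 8 of the members described in full are shown. The genes hold these members by position alone, and whether a member shares the transcript of its gene was not tested. The lines below are RefSeq starts on GRCh38.p14, minus strand, 40 bases before and 10 after the start, with the first 5 transcribed bases in capitals. SNHG10 (chr14:95534863-95534912) holds SCARNA13, RPL4 (chr15:66504846-66504895) holds SNORD16, CWF19L1 (chr10:100267629-100267678) holds SNORA12, and TAF1D (chr11:93741486-93741535) holds SNORD6, SNORA8, SNORA18, SNORA25 and SNORA32.
SNHG10: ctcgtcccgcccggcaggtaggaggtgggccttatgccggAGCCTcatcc
RPL4: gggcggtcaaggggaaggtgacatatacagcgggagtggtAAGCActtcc
CWF19L1: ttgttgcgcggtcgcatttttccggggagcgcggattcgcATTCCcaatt
TAF1D: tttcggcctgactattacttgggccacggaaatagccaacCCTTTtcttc
A start of C followed by 4 bases that are C or T, as in TAF1D, was found in 24 of the 63 genes with sequence among 74 that hold a detected member, and in 5.14% of all 27305 genes with a start in the table. Ribosomal protein hosts made up 12 of the 24, from 15 with sequence among 22, while SNHG or GAS5 hosts had 2 of 11 and other hosts 10 of 37. RPL4 has no match at the start printed here. A gene with several starts counted if any of them matched. Only the transcribed strand at the start was read, and a match is a description of the letters.

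Among the ratios of imetelstat over vehicle within a line, those of the U3 copies in HCT116 were the farthest from 0 of all members. SNORD3A had a log2 signal of 8.96 on the imetelstat array and 11.04 on the vehicle array of HCT116. It had 9.67 on the imetelstat array and 9.14 on the vehicle array labelled COLO205, and 8.60 with imetelstat and 8.66 with vehicle in OVCAR5. The HCT116 vehicle array was thus above each of the other 5 arrays, which lay between 8.60 and 9.67.

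SNORD3D followed the same order, with 8.81 against 10.91 in HCT116, 9.51 against 8.96 on the arrays labelled COLO205, and 8.44 against 8.85 in OVCAR5, imetelstat against vehicle. SNORD3C was dimmer, with 7.91 against 9.95, 8.68 against 8.06, and 7.88 against 8.08 for imetelstat against vehicle in the same order of lines. The log2 ratios of imetelstat over vehicle in HCT116 were -2.07 for SNORD3A, -2.04 for SNORD3C and -2.10 for SNORD3D, so that the imetelstat signal was 23.8%, 24.4% and 23.4% of the vehicle signal. The ratios were 0.52, 0.62 and 0.56 in the pair labelled COLO205, and in OVCAR5 they were -0.06, -0.20 and -0.41. The 3 copies are nearly identical in sequence and their probes may not separate them, so they count as 1 RNA measured with 3 probes. Averaged over these probes, the HCT116 vehicle array stood at 10.63 and the next highest, imetelstat labelled COLO205, at 9.29. Within HCT116 they ranked 17, 18 and 20 from the lowest ratio among 11010 genes.

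**Figure D1:**
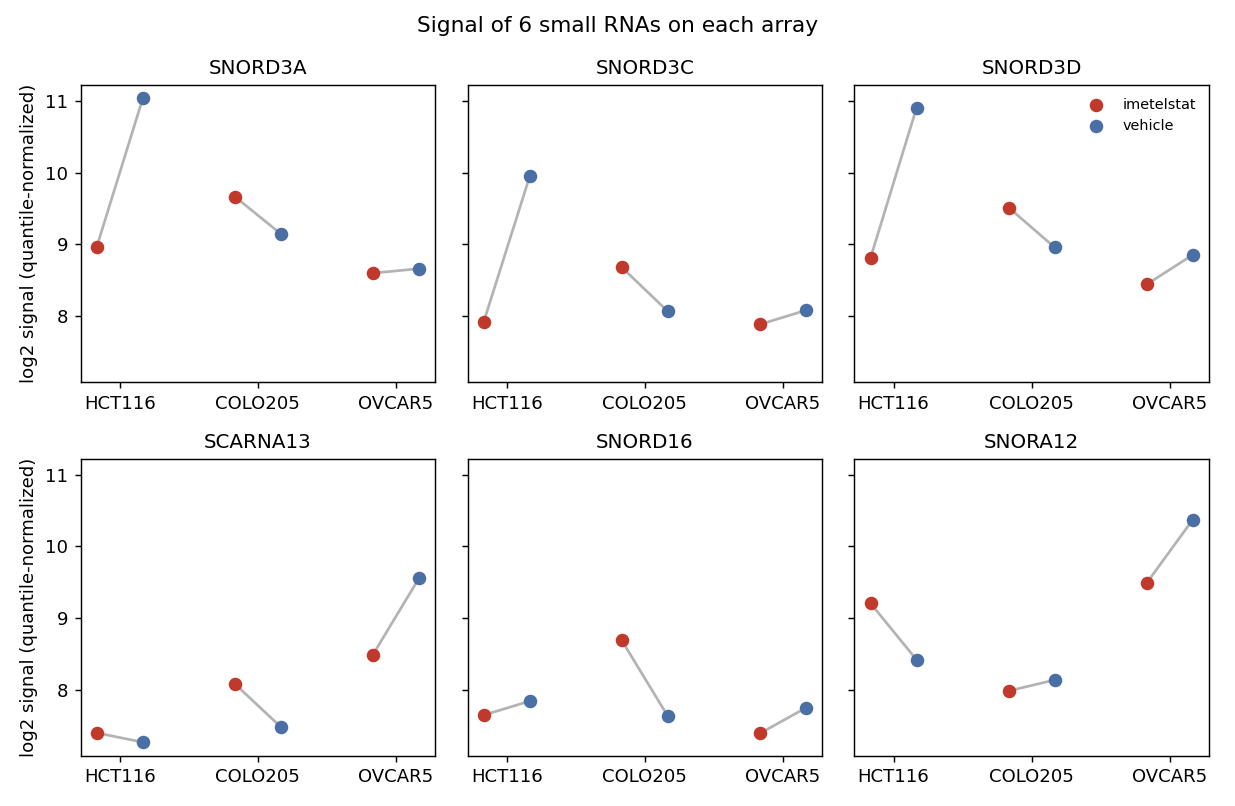
Quantile-normalized log2 signal of 6 small RNAs on each array, imetelstat (red) left of vehicle (blue) in each line, 1 array per point with no error bar. The HCT116 vehicle array stands above the other 5 for the 3 U3 copies, between 9.95 and 11.04, and OVCAR5 vehicle is highest for SCARNA13 and SNORA12.

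Several other short RNAs with promoters of their own were also at least 2-fold lower on the imetelstat array of HCT116 than on its vehicle array. RN7SK, which holds back transcription elongation, had 9.07 against 10.50 (imetelstat against vehicle, log2 ratio -1.43), and its second detected probe had 7.17 against 8.88, a log2 ratio of -1.71. The U1 spliceosomal RNA genes RNU1-3 and RNU1-1 had 8.48 against 9.98 and 8.36 against 9.65 in HCT116, log2 ratios of -1.50 and -1.29. For RN7SK the ratios were 0.11 in the pair labelled COLO205 and -0.30 in OVCAR5. On the arrays of these lines its signal lay between 8.32 and 9.36, and that of its second probe between 6.75 and 7.02. The HCT116 vehicle array was thus the highest for both RN7SK probes, as for U3. Of 43 other short noncoding RNAs detected in HCT116 4 were at least 2-fold lower, beside 0.736% of all genes. The fourth was the U6 RNA gene RNU6-1 at -1.06, named after its values were seen. RNU1-3 and RNU1-1 are both U1 genes and may not be separate measurements. A ratio below 0 was found for 31 of the 43, beside 49% of all genes. In the pair labelled COLO205 18 of 36 such RNAs were below 0, and in OVCAR5 21 of 40. MIR1228, also named by rule, had 0.23 in HCT116. RN7SL1, the RNA of the signal recognition particle, was chosen after its values were seen and had 14.18 with imetelstat and 14.21 with vehicle in HCT116. SNORD13, a member in no annotated host, had 8.65 with imetelstat and 8.59 with vehicle there. TERC, the RNA of telomerase, was detected on 2 of 6 arrays and its log2 ratios were 0.17, 0.14 and -0.29 in HCT116, the arrays labelled COLO205 and OVCAR5.

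Apart from U3, ratios within a line were small. At least 2-fold lower signals with imetelstat were found for 3 of 91 members detected in HCT116, beside 0.736% of all 11010 genes detected there. All 3 are U3 copies, which count as 1 RNA, and without them 0 of 88 members were 2-fold lower. No member was at least 2-fold higher in HCT116 (0.0908% of all genes). In the pair labelled COLO205 0 of 90 members were 2-fold lower (0.163% of all genes) and 1, SNORD16, was 2-fold higher (0.134%). In OVCAR5 1 of 83, SCARNA13, was 2-fold lower (0.342%) and none was 2-fold higher (0.256%). These comparisons have 1 array on each side and no test.

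The direction of the small ratios differed between the lines. In HCT116 60 of 91 members (65.9%) had a ratio below 0, beside 49% of all genes, and their median log2 ratio was -0.08. In OVCAR5 66 of 83 (79.5%) were below 0, beside 50.8%, with a median of -0.15. On the arrays labelled COLO205 only 25 of 90 (27.8%) were below 0, beside 51.1%, and the median was 0.20. Medians of all genes lay between -0.01 and 0.01. Dim genes that are no members, under a log2 signal of 8, were split evenly, with 49.2%, 51.9% and 50.2% below 0 in HCT116, the arrays labelled COLO205 and OVCAR5. The 185 member probes detected on no array leaned the same way as the detected members, but less. Of these, 51.9%, 41.6% and 53.5% were below 0 in that order of lines, beside 49.5%, 48.9% and 49.3% of all undetected probes. Some members were detected on 1 array of a pair alone. In HCT116 6 were detected with imetelstat only and 13 with vehicle only, in the pair labelled COLO205 18 and 8, and in OVCAR5 3 and 17, and for these a direction partly follows from the filter. Over the 47 members detected on all 6 arrays the counts below 0 were 28, 13 and 38 in the same order, and the medians were -0.05, 0.20 and -0.17. The share in the COLO205 pair depends on scaling. Scaled to a common median, 40 of 90 members were below 0 and 50 above while 82.5% of all genes were below 0, and the median of all genes was then -0.26.

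**Figure D2:**
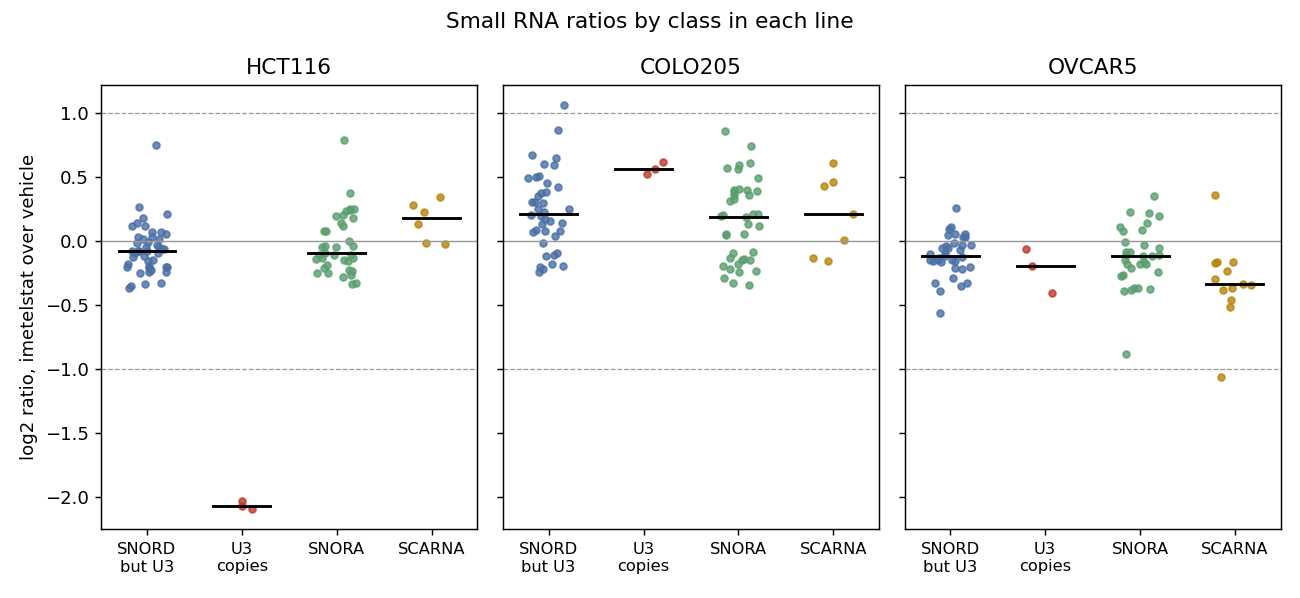
Log2 ratio of imetelstat over vehicle for each detected member, by class and line, with a black bar at the median and dashed lines at 2-fold; each point is 1 gene on 1 pair of arrays. The U3 copies lie near -2 in HCT116 only, and most other points lie above 0 on the arrays labelled COLO205 and below 0 in OVCAR5.

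By class, box C/D RNAs other than U3 had median log2 ratios of -0.08 in HCT116 (31 of 45 below 0), 0.21 on the arrays labelled COLO205 (9 of 40) and -0.12 in OVCAR5 (27 of 35). Box H/ACA RNAs had -0.10 (24 of 37), 0.19 (14 of 40) and -0.12 (24 of 32) in the same order. SCARNA genes had 0.18 in HCT116 (2 of 6 below 0), 0.21 on the arrays labelled COLO205 (2 of 7) and -0.34 in OVCAR5 (12 of 13). Of the 7 on the arrays labelled COLO205 3 were detected with imetelstat only, and of the 13 in OVCAR5 4 with vehicle only and 1 with imetelstat only. Over the 4 SCARNA genes detected on all 6 arrays the medians were 0.18 in HCT116 (1 below 0), -0.06 in the pair labelled COLO205 (2 below 0) and -0.27 in OVCAR5 (4 below 0).

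On the arrays labelled COLO205 the highest ratios belonged to SNORD16, which lies in the ribosomal protein gene RPL4. Its log2 signal was 8.69 with imetelstat and 7.63 with vehicle there, 7.64 and 7.84 in HCT116, and 7.39 and 7.74 in OVCAR5, imetelstat first in each. The COLO205 imetelstat array was the highest of the 6, and the log2 ratios were 1.06, -0.20 and -0.36. SNORD68, in RPL13, had 8.59 against 7.73 on these arrays (0.86), and SNORA62, in RPSA, had 8.24 against 7.39 (0.85). Measured ratios of 1.5-fold or more above 1 were found for 12 of 90 members, beside 1.87% of all genes, among them SNORA10 at 0.74. One of the 12, SNORD83A, was not detected on the vehicle array, and against the lowest detected signal it was at least 1.03-fold higher. At the other end SNORA11D, SNORA8 and SNORA50C had log2 ratios of -0.35, -0.33 and -0.29. Mean raw signal of this imetelstat array was 78.5% of that of its vehicle array, and its part in these ratios was not tested.

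In HCT116 2 members had a measured ratio of 1.5-fold or more, beside 1.3% of all genes, and 1 of them was detected on both arrays. SNORA12 had 9.21 with imetelstat and 8.42 with vehicle, a log2 ratio of 0.79. SNORD42A had 7.30 and 6.55, but it was detected on the imetelstat array alone, and against the lowest detected signal it was at least 1.25-fold higher. SNORA6, in RPSA, followed at 0.37, and it was also among the highest in OVCAR5 with 0.35, but had -0.2 on the arrays labelled COLO205.

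In OVCAR5 2 members were at least 1.5-fold lower, beside 1.36% of all genes. SCARNA13 had 8.49 with imetelstat and 9.56 with vehicle, 8.08 and 7.48 in the pair labelled COLO205, and 7.39 and 7.27 in HCT116. The imetelstat signal of OVCAR5 was 47.7% of the vehicle signal (log2 ratio -1.07), while the ratios were 0.60 and 0.13 in the other lines. Its host SNHG10 had 7.04 and 7.06 in OVCAR5, close to the lowest detected signals. SNORA12, the second, had 9.49 against 10.37 in OVCAR5 (-0.88), and its host CWF19L1 had 9.65 against 9.53. SNORD13, which guides an acetylation of ribosomal RNA, had 8.79 against 9.36 (-0.57). The highest members in OVCAR5 were SCARNA9L at 0.36, not detected on the vehicle array, SNORA6, and SNORD14C at 0.26.

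Across the lines, limma with the line as a block found no member with an adjusted p below 0.05 (0% of all genes), and the lowest adjusted p of a member was 1. At an unadjusted p below 0.05, 1 member was lower and 1 higher, beside 1.62% and 1.07% of all genes. The lower one was SNORA8, at 8.66, 8.45 and 7.55 with imetelstat and 8.82, 8.78 and 7.93 with vehicle in HCT116, the arrays labelled COLO205 and OVCAR5, a mean log2 difference of -0.29 (SE 0.12, unadjusted p = 0.0391 by limma, adjusted p = 1). The higher one was SNORA73A, with a mean log2 difference of 0.27 (unadjusted p = 0.0481 by limma, adjusted p = 1); it was not detected in OVCAR5 and its near relative SNORA73B had probes that ran opposite ways on the arrays labelled COLO205 (0.39 and -0.35). Of 60 members detected in each line, 5 were lower in all of them and 1, SNORA7B, higher, beside 10.5% and 10.8% of all such genes. Those 5 were SNORD6, SNORD89, SNORA8, SNORA33 and SCARNA16. A plain paired test found 0 members at an adjusted p below 0.05 and 5 of 118 at an unadjusted p below 0.05, beside 434 of all 12187 genes.

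Levels of the members were also compared between OVCAR5 and the other lines. With treatment in the model, 23 of 118 members were lower and 10 higher in OVCAR5 at an adjusted p below 0.05 by limma, beside 24.8% and 22% of all 12187 genes, so that members did not pass more often than genes in general. All 7 SCARNA genes that passed were higher and none was lower, all 11 SNORD genes that passed were lower, and of the SNORA genes 12 were lower and 3 higher. Detected on both sides of the comparison were 4 of the 7 SCARNA genes, 8 of the 11 SNORD genes, and 9 of the 12 lower and 1 of the 3 higher SNORA genes. The others entered through the side where they are high. Each line contributes its treated and its control culture to this fit, which are not replicates of 1 condition, and the arrays labelled COLO205 may not be a separate line. The difference between the classes itself was not tested.

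The brightest SCARNA genes that passed were SCARNA13, SCARNA9 and SCARNA16. SCARNA9 had 8.32 and 8.56 in OVCAR5, against 7.68 and 7.46 in HCT116 and 7.39 and 7.38 on the arrays labelled COLO205, imetelstat first in each line. SCARNA16 had 8.07 and 8.37, against 6.99 and 7.01, and 7.09 and 7.22. For both, the OVCAR5 arrays lay above the other 4 without overlap. This was so for 19 of 118 members and for 3347 of all 12187 genes, so it is not particular to members.

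The log2 differences were 1.47 for SCARNA13 (SE 0.26, adjusted p = 0.00103 by limma), 0.96 for SCARNA9 (SE 0.14, adjusted p = 0.000261) and 1.14 for SCARNA16 (SE 0.13, adjusted p = 5.09e-05). SCARNA14 passed too, but it entered through OVCAR5 alone. It had 7.96 and 8.48 there and was not detected on the other 4 arrays, so that it was at least 2.31-fold higher. SCARNA11 was likewise detected in OVCAR5 alone, at least 1.6-fold higher, and SCARNA23 on 1 OVCAR5 array alone. SCARNA18 passed with a log2 difference of 0.49. SCARNA8, SCARNA12, SCARNA20, SCARNA22, SCARNA9L and SCARNA10 did not pass, and of these SCARNA10 alone had a value below 0 (-0.21). SCARNA10 is bright in each line, between 7.76 and 8.20.

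The SNORA genes spread widest between the lines. SNORA61, in SNHG12, had 7.87 and 8.11 in OVCAR5, against 10.34 and 10.67 in HCT116 and 10.46 and 10.33 on the arrays labelled COLO205, imetelstat first. The OVCAR5 arrays lay below the other 4, as for 42 of 118 members and 3979 of all 12187 genes. The log2 difference of SNORA61 was -2.46 (SE 0.14, adjusted p = 3.82e-07 by limma), and SNHG12 itself had a difference of -0.82 (SE 0.15). SNORA25, in TAF1D, had 7.62 and 7.40 in OVCAR5, against 9.13 and 9.34 in HCT116 and 9.11 and 9.05 on the arrays labelled COLO205 (log2 difference -1.65, adjusted p = 5.36e-06 by limma).

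The 5 members in TAF1D, whose start is printed above, did not share 1 difference. SNORA8 and SNORA18 had -0.94 and -0.77, SNORA32 had -0.38 and was not detected in OVCAR5, and SNORD6 had -0.12 (adjusted p = 0.461 by limma), while TAF1D itself had -0.27 (adjusted p = 0.136). SNORA12 ran the other way, with 9.49 and 10.37 in OVCAR5 against 7.98 to 9.21 on the other 4 arrays (log2 difference 1.5, SE 0.26, adjusted p = 0.000798 by limma), whereas its host CWF19L1 had a log2 difference of -1.01 (SE 0.14, adjusted p = 0.000203). SNORA57 had a log2 difference of -0.89. SNORA79 was detected in OVCAR5 alone and at least 1.6-fold higher.

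Among box C/D RNAs SNORD25, in SNHG1, had 7.13 and 7.04 in OVCAR5 against 8.15 to 8.51 on the other 4 arrays (log2 difference -1.29, adjusted p = 4.1e-05 by limma). SNORD83B, in RPL3, had -0.98, and SNORD14D, in the chaperone gene HSPA8, was not detected in OVCAR5 and was at least 1.46-fold lower. SNORD104 is among the brightest box C/D RNAs and had 8.60 and 8.75 in OVCAR5 against 9.06 to 9.34. SNORD3A passed at -1.08 (adjusted p = 0.0422 by limma), and its HCT116 vehicle array enters that mean. It also passed without the HCT116 pair (adjusted p = 0.00369 by limma) and without the COLO205 pair (adjusted p = 0.00519 by limma). Without the COLO205 pair 23 members were lower and 10 higher, and without the HCT116 pair 24 and 7, of which 29 and 28 were among the 33 above.

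Members sit in hosts of several kinds, by position alone since the table used gives no strand. The 30 members detected in ribosomal protein genes on the arrays labelled COLO205 had a median log2 ratio of 0.25, with 23 above 0. For 24 of them the host was detected too, and the member had a ratio above 0 in 19 of these pairs but the host in 5, the medians being 0.28 for members and -0.07 for hosts over these pairs. In HCT116 the order was turned, with the member above 0 in 6 of 22 pairs and the host in 19. In OVCAR5 members and hosts did not part, each above 0 in 4 of 20 pairs, with medians of -0.14 for members and -0.10 for hosts. Several members can share a host, so the 24 pairs of the arrays labelled COLO205 hold 16 hosts, the 22 of HCT116 14 and the 20 of OVCAR5 13. RPL4, the host of SNORD16, had log2 ratios of -0.21 on the arrays labelled COLO205 and 0.32 in HCT116.

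Genes of the SNHG type, whose spliced RNA mostly encodes no protein, had ratios above 0 in 12 of 12 cases on the arrays labelled COLO205 (median 0.64). Of all genes 48.9% were above 0 there. A ratio of at least 1.5-fold was found for 7 of the 12, beside 1.87% of all genes. Host genes and protein lists were taken with quantile normalization only, and other scalings were not run for them. In OVCAR5 12 of 13 genes of the SNHG type were below 0 (median -0.26), beside 50.8% of all genes. In HCT116 10 of 13 were below 0 (median -0.12), beside 49%. SNHG7 had 11.12 with imetelstat and 10.41 with vehicle on the arrays labelled COLO205, and its 2 other probes ran the same way. Members inside such hosts had medians of -0.04 in HCT116, 0.16 on the arrays labelled COLO205 and -0.16 in OVCAR5. None of the host genes passed the paired test.

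**Figure D3:**
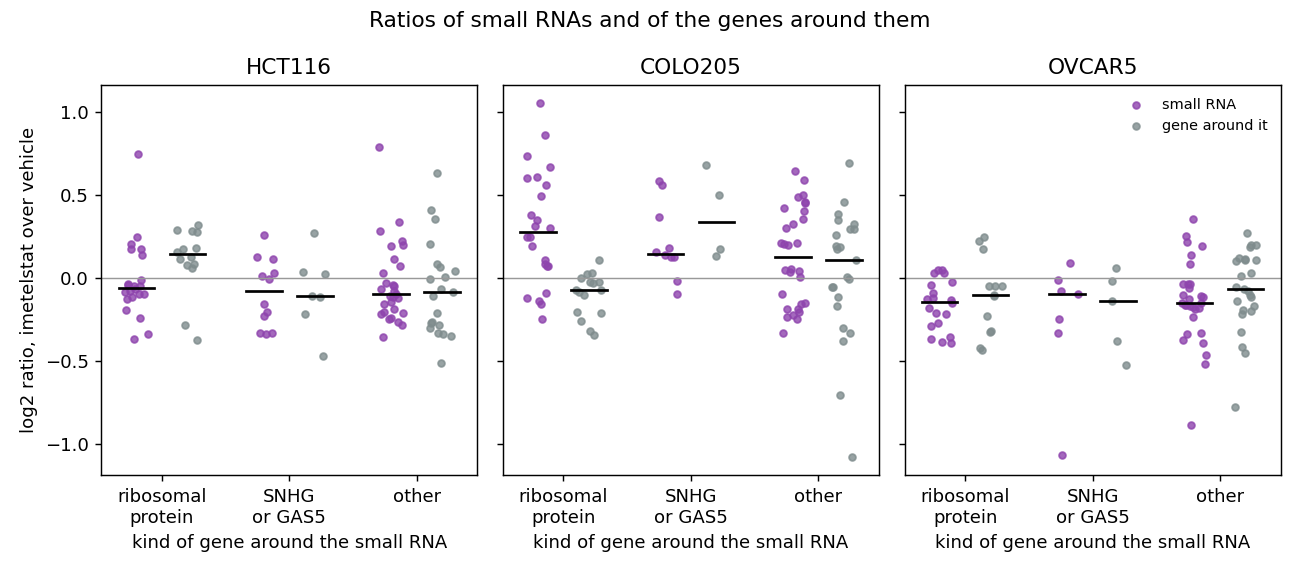
Log2 ratio of imetelstat over vehicle for small RNAs (purple) and for the genes that hold them (grey), by kind of holding gene and line, for pairs in which both were detected; black bars are medians and each holding gene is drawn once. On the arrays labelled COLO205 the small RNAs of ribosomal protein genes lie mostly above 0 and their hosts mostly below.

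Proteins of the complexes did not pass the paired test in any list. Of the U3 particle and the processome, which cleave the precursor of ribosomal RNA, 25 of 26 genes were measured. In HCT116 21 of 25 had a ratio below 0 (median -0.21), beside 49% of all genes. On the arrays labelled COLO205 20 of 23 were above 0 (median 0.25), beside 48.9%. In OVCAR5 17 of 22 were below 0 (median -0.12), beside 50.8%. NOL6 had 8.51 against 9.32, 9.47 against 8.80, and 8.73 against 9.15, imetelstat against vehicle in that order of lines.

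The 6 H/ACA proteins, which also bind the RNA of telomerase, were measured. All 6 had a ratio above 0 on the arrays labelled COLO205 (median 0.37), beside 48.9% of all genes. In HCT116 2 of 6 and in OVCAR5 1 of 6 were above 0, beside 50.8% and 49.1% of all genes. These are the brightest probes, and in the pair labelled COLO205 1 dimmer probe each of GAR1 and NHP2 ran the other way, at -0.41 and -0.46. DKC1, the pseudouridine synthase dyskerin, had 11.04 against 11.32 in HCT116, 11.51 against 11.05 on the arrays labelled COLO205 and 9.93 against 10.33 in OVCAR5. Of 12 measured box C/D proteins 8, 4 and 8 of 12 had a ratio below 0 in HCT116, the arrays labelled COLO205 and OVCAR5. RUVBL1, an ATPase of box C/D assembly, had 10.01 against 10.54, 10.03 against 10.28, and 9.27 against 9.72 (unadjusted p = 0.00793 by limma, adjusted p = 1). These are log2 ratios of -0.53, -0.25 and -0.44, and its second detected probe had smaller ones, -0.20, -0.08 and -0.29. The 16 measured genes of Cajal bodies and small RNA maturation had medians of -0.01, 0.04 and -0.05. WRAP53, which brings telomerase and SCARNA complexes to Cajal bodies, had 8.63 with imetelstat and 8.64 with vehicle in HCT116, 9.03 and 8.80 in the pair labelled COLO205, and 8.32 and 7.97 in OVCAR5.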

How the data were processed

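Total RNA was extracted with Trizol and columns, amplified with a MessageAmp kit and hybridised to 6 Illumina arrays of 1 chip. The authors deposited linear signal intensities, which are bead averages with no normalization between arrays, and a detection p-value per probe and array, set against negative control beads. The authors' table of processed intensities is quantile-normalized and was used as an alternative only. The methods name log2, quantile normalization and limma.

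Here the linear signals were log2-transformed and quantile-normalized with limma 3.58.1 in R 4.3.3. Of 47231 probes 30113 had 1 symbol in the platform annotation, 8 several and 17110 none. For 30074 the gene identifier was matched in the RefSeq annotation, whose symbol was then used. The brightest probe detected (p below 0.01) on at least 1 array stood for each gene, which left 12187 genes, 3242 with more than 1 detected probe. Within a line 1 array was set against 1, called at 2-fold, with a bound where 1 array did not detect the gene. Across lines, and for OVCAR5 against the arrays labelled HCT116 and COLO205, lmFit and eBayes were used with Benjamini-Hochberg adjustment at 0.05 over all genes (tested on simulated data). Precision is limited by how few arrays there are. Hosts are genes of the RefSeq annotation of GRCh38.p14 whose span holds the member; the plan asked for the same strand, which the table does not give. Figures used matplotlib 3.10.9.

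Members and lists were chosen with earlier results of these data known. Named members were those at least 2-fold lower or higher in a line, the 3 highest and 3 lowest in each line, U3 copies, all SCARNA genes, the 3 brightest of each class, those with several probes, and the 8 largest line differences each way; other lists name up to 4 genes by mean ratio, and other names were chosen after their values were seen. Alternatives were normexp with an offset of 16, median scaling, no scaling, other detection filters, the mean of probes, 32 added to the signal, limits of 1.5-fold and 3-fold, each line left out, and paired tests with no block, with a variance trend or without limma's moderation. No sequence of the members or their probes was used here.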

Additional observations from a re-analysis of the deposited data

Results flagged for a closer look

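For 3 small RNAs the log2 ratio was at least 1.5-fold in opposite directions in 2 lines; these differences between lines were not tested, since each rests on 1 array per line and treatment. SNORD3C had -2.04 in HCT116 and 0.62 on the arrays labelled COLO205, a gap of -2.65. The other U3 copies ran the same way, SNORD3A with -2.07 and 0.52 and SNORD3D with -2.10 and 0.56. They fell short of 1.5-fold on the arrays labelled COLO205 alone, and the 3 copies count as 1 RNA. SNORA12 had 0.79 in HCT116 and -0.88 in OVCAR5, a gap of 1.67. SCARNA13 had 0.60 on the arrays labelled COLO205 and -1.07 in OVCAR5, a gap of 1.67.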

How the results depend on the processing

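No ratio of at least 2-fold and no median over all members changed sign under the alternatives run. Single ratios were followed for the members named by rule only. Among these, smaller ratios of SCARNA9, SNORA25, SNORA61, SNORD104, SNORD14D and SNORD25 on the arrays labelled COLO205 turned below 0 with median scaling and without scaling. Those of SNORA73B turned in each line with its other probe. Over all 90 members on the arrays labelled COLO205, 25 were below 0, against 40 with median scaling and 42 without scaling. The SCARNA median on the arrays labelled COLO205 also changed sign, from 7 genes at 0.21 to the 4 genes detected on all 6 arrays at -0.06. The count of 3 members at least 2-fold lower in HCT116 was the same in all of them. Members at least 2-fold higher in HCT116 numbered 2 at 1.5-fold and 1 with normexp, against 0. On the arrays labelled COLO205 the count of 1 became 12 at 1.5-fold and 7 with normexp, and 0 at 3-fold, with median scaling, without scaling and with 32 added. In OVCAR5 the count of 1 lower member was 2 at 1.5-fold and 0 at 3-fold. The median ratio on the arrays labelled COLO205, 0.20, was 0.37 with normexp, 0.083 with median scaling, 0.031 without scaling and 0.059 without a detection filter; all genes had medians of -0.26 and -0.31 under the 2 scalings, and 21.1% and 17.8% of members then lay below them. The 33 members that differed in OVCAR5 were 18 when detection on all 6 arrays was required, where 47 members were tested. The paired fit called 0 members, also with no replicate block, a plain paired test, a variance trend and each line left out. Most members lie near the lowest detected signals, which limits their ratios.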
